A study of Mus musculus with 12 samples.

Results

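The genes described here are 10 Wnt target and crypt stem genes of the mouse colorectum, namely Axin2, Nkd1, Notum, Rnf43, Znrf3, Sp5, Lef1, Tcf7, Lgr5 and Ascl2. They were chosen by symbol, and all 10 were found among the 18514 genes of the count table and passed the filter on low counts. RNA of colorectal tissue was sequenced in 12 libraries from male C57BL/6 mice bought young, 3 libraries in each of 4 groups. Ctrl mice received plain drinking water, and Ctrl_Swim mice received plain water and swam daily. Model mice received a single injection of azoxymethane (AOM), a carcinogen. They then had drinking water with dextran sulfate sodium (DSS), an irritant of the colon lining, in repeated cycles. Model_Swim mice received AOM and DSS and swam daily. The untrained mice, those of Ctrl and Model, were placed in shallow water instead. Swimming began before AOM and went on to the end of the experiment, so that the training of Model_Swim mice was not confined to the time before treatment. The mice carried no transgene or deleted allele. The colon was taken from the end of the cecum to the rectum, and which stretch of it, or how much tumour, entered each library is not given in the sources used here.

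Wnt ligands keep stem cells at the base of the colonic crypt dividing. They act by stabilising beta-catenin, which binds the DNA through factors of the TCF/LEF family and switches on target genes. Many of these targets are brakes on the pathway itself, so that their transcripts serve as a readout of Wnt activity, and they are known to be high in tumours in which beta-catenin is stabilised. Others mark the stem cells of the crypt base.

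Libraries held between 17256953 and 19451055 counts, and the labelled tissue was borne out by the 10 epithelial genes listed as its markers, whose summed level lay between 11972 and 17705 CPM (counts scaled to library size by TMM) in all libraries. A few libraries stood apart. In Model 1 and Model 3 the 14 genes of pancreatic acinar cells summed to 50165 and 24573 CPM, against 94.3 to 213 CPM in the other 10 libraries. The 10 genes of squamous epithelium, which lines the anal canal and not the colon, summed to 5.59 to 9.38 CPM in the Ctrl mice, Ctrl_Swim 3 and Model 3 and to 70.5 to 1735 CPM in the other 7 libraries. The most abundant of these were Ctrb1, up to 7837 CPM in Model, and Cela2a for the acinar genes, and Krt5 and Krt14 for the squamous genes. Sprr3 was at 0 in Ctrl and Amy2b in Model_Swim. The sum of 6 posterior Hox genes, which mark the distal end of the gut, was 28.8 CPM in Model 3 and 89.2 to 271 CPM elsewhere. The part of these differences in the results was not tested beyond the fits without Model 1 and Model 3 and the fits with a covariate given beside them.

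Levels were first compared between the genes in the untreated Ctrl mice, on the scale of FPKM, which counts per transcript length. Axin2 was the most abundant at 9.19 ± 0.661 FPKM (SD, n = 3, as for all values below), followed by Rnf43 at 7.44 ± 0.685 FPKM, Tcf7 at 4.58 ± 0.458 FPKM and Nkd1 at 4.26 ± 0.353 FPKM. Lgr5 reached 2.82 ± 0.705 FPKM, Znrf3 2.30 ± 0.136 FPKM and Ascl2 1.67 ± 0.0410 FPKM. Sp5 at 0.460 ± 0.125 FPKM, Lef1 at 0.192 ± 0.0492 FPKM and Notum at 0.0831 ± 0.0457 FPKM were close to silent. In this order the mice of Tcf7 and Nkd1 overlapped, as did those of Lgr5 and Znrf3, and the other neighbours did not overlap. In Model_Swim the order was another one. Nkd1 (15.8 ± 1.08 FPKM) and Axin2 (15.2 ± 0.583 FPKM) overlapped at the top, Rnf43 stood at 10.4 ± 0.800 FPKM, and Notum, last in Ctrl, reached 7.00 ± 0.764 FPKM and overlapped with Tcf7 at 7.31 ± 0.719 FPKM. The remaining genes were Lgr5 at 4.91 ± 0.419 FPKM, Znrf3 at 3.32 ± 0.235 FPKM, Sp5 at 2.62 ± 0.206 FPKM, Ascl2 at 2.01 ± 0.295 FPKM and Lef1 at 1.02 ± 0.0532 FPKM, with no overlap between neighbours.

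Among the brakes of the pathway, Notum showed the widest range. Notum encodes a secreted enzyme that strips the lipid from Wnt ligands and so inactivates them. Its level was 0.552, 0.164 and 0.330 CPM in the Ctrl mice and 0.110, 0.372 and 0.511 CPM in the Ctrl_Swim mice, from 2 to 10 counts in each library. In the Model mice it was 104, 9.21 and 0.631 CPM, and in the Model_Swim mice 24.2, 27.8 and 29.7 CPM. Thus Notum was near the floor in all 6 mice without AOM/DSS, high in all 3 Model_Swim mice, and spread over 165-fold within Model, where Model 3 with 11 counts was just above the untreated mice. Notum was higher in Model than in Ctrl by 6.75 ± 1.51 on the log2 scale (fitted log2 fold change ± SE, adjusted p = 0.00738) and higher in Model_Swim than in Ctrl_Swim by 6.32 ± 1.50 (adjusted p = 0.0394). In GRCm38.p6, the build of all positions below, Notum spans bases 120653788 to 120661193 of chromosome 11.

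Nkd1 encodes a cytoplasmic protein that binds Dishevelled and dampens the Wnt signal, and spans chromosome 8 from 88521342 to 88594887. It was expressed at 18.5, 21.2 and 20.9 CPM in Ctrl, at 17.1, 25.2 and 19.0 CPM in Ctrl_Swim, at 216, 39.0 and 21.2 CPM in Model and at 64.9, 70.4 and 73.5 CPM in Model_Swim. The order of the mice was that of Notum, with Model 1 far above the rest, Model 3 at the edge of Ctrl, and the 3 Model_Swim mice close together. Nkd1 rose by 2.19 ± 0.65 on the log2 scale in Model against Ctrl (adjusted p = 0.0259). The difference between Model_Swim and Ctrl_Swim was 1.77 ± 0.65, with an adjusted p of 0.138, although the groups did not overlap.

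Axin2, a scaffold of the complex that destroys beta-catenin and the most widely used readout of Wnt activity, was expressed at 47.1, 52.2 and 53.1 CPM in Ctrl and 44.0, 49.2 and 47.6 CPM in Ctrl_Swim. It reached 156, 59.5 and 40.8 CPM in the Model mice and 78.0, 81.4 and 75.4 CPM in the Model_Swim mice. Model 1 stood above all mice and Model 3 below all mice, so Model and Ctrl overlapped and the difference of 0.75 ± 0.36 on the log2 scale did not pass (adjusted p = 0.130). Model_Swim lay wholly above Ctrl_Swim, with a difference of 0.74 ± 0.36 (adjusted p = 0.258). Axin2 spans chromosome 11 from 108917828 to 108950783.

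Rnf43 and Znrf3 encode a pair of related membrane ubiquitin ligases that remove Frizzled receptors from the cell surface. Rnf43 (chromosome 11, 87663087 to 87735539) ranged from 37.9 to 46.2 CPM in the 6 mice without AOM/DSS, was 101, 44.1 and 31.6 CPM in Model and 50.9, 58.5 and 56.7 CPM in Model_Swim. Znrf3 (chromosome 11, 5276329 to 5444847) ranged from 15.7 to 20.0 CPM without AOM/DSS, was 41.9, 20.8 and 17.0 CPM in Model and 26.5, 26.1 and 23.0 CPM in Model_Swim. Within Model both ligases had the order of mice seen for Axin2, with a smaller range. Neither passed the test in Model against Ctrl (Rnf43 0.47 ± 0.32, adjusted p = 0.273, and Znrf3 0.50 ± 0.26, adjusted p = 0.157). Both lay above Ctrl_Swim in all 3 Model_Swim mice without passing there.

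Among the transcription factors, Sp5 is a zinc finger repressor that is itself a direct target of beta-catenin. Its level was 1.10, 0.709 and 1.26 CPM in Ctrl, 1.64, 0.851 and 0.920 CPM in Ctrl_Swim, 20.2, 2.02 and 1.15 CPM in Model and 5.39, 5.06 and 5.88 CPM in Model_Swim. Model 1 carried most of the group's signal and Model 3, with 20 counts, lay inside the Ctrl range. Sp5 rose by 2.92 ± 0.88 on the log2 scale in Model against Ctrl (adjusted p = 0.0276), and differed by 2.25 ± 0.87 between Model_Swim and Ctrl_Swim (adjusted p = 0.155).

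Lef1 and Tcf7 encode DNA-binding partners of beta-catenin, and both are also well known as factors of developing and naive T cells. Lef1 was expressed at 0.828, 0.654 and 1.10 CPM in Ctrl, 0.548, 0.532 and 5.47 CPM in Ctrl_Swim, 15.2, 3.11 and 3.33 CPM in Model and 4.02, 4.41 and 4.29 CPM in Model_Swim. Tcf7 was expressed at 14.1, 14.1 and 11.8 CPM in Ctrl, 11.9, 13.5 and 31.7 CPM in Ctrl_Swim, 39.6, 17.1 and 28.4 CPM in Model and 17.7, 20.6 and 21.2 CPM in Model_Swim. The pair differed from the other genes in 2 mice. Ctrl_Swim 4 was high for both, and Model 3, near or below the untreated mice for the other genes, lay above all Ctrl mice for both. Lef1 rose by 3.06 ± 0.91 (adjusted p = 0.0255) and Tcf7 by 1.09 ± 0.36 (adjusted p = 0.0400) on the log2 scale in Model against Ctrl. Between Model_Swim and Ctrl_Swim, Lef1 differed by 0.95 ± 0.83 (adjusted p = 0.550) and Tcf7 by 0.06 ± 0.36 (adjusted p = 0.947).

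The summed level of 14 T cell genes, none of them Lef1 or Tcf7, was 46.1 to 52.3 CPM in Ctrl, 54.1, 59.1 and 130.5 CPM in Ctrl_Swim 2, 3 and 4, 103, 116 and 150 CPM in Model 1, 2 and 3, and 84.2 to 102 CPM in Model_Swim, and none of the 14 genes was at 0 in a whole group. The sum was high in Ctrl_Swim 4, as the pair was, and was highest of all mice in Model 3. In Model 3, Tcf7 at 28.4 CPM lay above all Model_Swim mice, but Lef1 at 3.33 CPM lay below them. Within Model the sum was lowest in Model 1, where Lef1 and Tcf7 were highest. Its most abundant genes, Cd4 and Lck, ran from 7.64 to 9.70 and from 6.60 to 8.45 CPM in Ctrl, and from 18.1 to 33.7 and from 12.8 to 18.0 CPM in Model. Of the 14 genes 11 rose in Model against Ctrl, as did 9 of 10 B cell genes, where 16.5% of all genes passed and were higher. The libraries are of bulk tissue, in which more cells of a type and more RNA per cell cannot be told apart. With the T cell level as a covariate, Lef1 differed by 1.08 ± 1.15 (adjusted p = 0.607) and Tcf7 by 0.05 ± 0.42 (adjusted p = 0.962) between Model and Ctrl. In that same fit Notum differed by 8.22 ± 2.83, Nkd1 by 2.80 ± 1.02 and Sp5 by 3.94 ± 1.38, none passing, and 183 of all genes passed. The covariate itself differed between these groups.

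**Figure D1:**
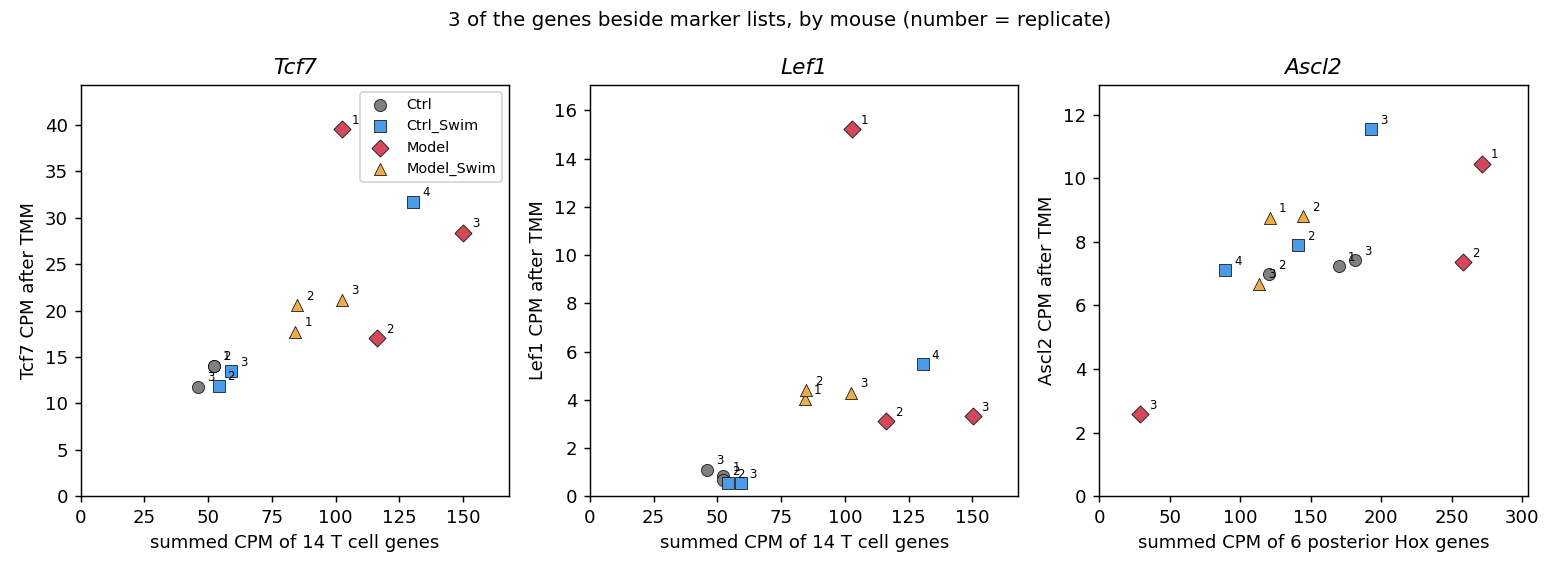
CPM of Tcf7 and Lef1 in each mouse against the summed CPM of 14 T cell genes, and of Ascl2 against the summed CPM of 6 posterior Hox genes, on linear axes with symbols for the 4 groups and the replicate number beside each point. The low T cell sums are those of the Ctrl mice, Ctrl_Swim 2 and Ctrl_Swim 3, with low Tcf7 and Lef1, whereas Model 3 stands alone at the lower left for Ascl2, at 2.58 CPM.

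The markers of crypt base stem cells passed the test in neither comparison of AOM/DSS with untreated mice. Lgr5, a receptor for R-spondins that marks the cycling stem cells, was expressed at 10.2, 15.9 and 16.3 CPM in Ctrl and 16.3, 17.8 and 19.5 CPM in Ctrl_Swim. It was 54.1, 10.8 and 5.05 CPM in Model and 23.3, 20.8 and 24.6 CPM in Model_Swim. Model 1 was the highest of the 12 mice and Model 3 the lowest, and the group difference of 0.73 ± 0.62 on the log2 scale did not pass (adjusted p = 0.389). Lgr5 spans chromosome 10 from 115450314 to 115587780. Ascl2, the transcription factor that maintains the stem cell state, was not higher in either treated group. It was 6.98 to 7.42 CPM in Ctrl, 7.10 to 11.5 CPM in Ctrl_Swim, 10.5, 7.36 and 2.58 CPM in Model and 6.68 to 8.81 CPM in Model_Swim, so that Model 3, and by a small margin Model_Swim 3, lay below the mice without AOM/DSS. The differences of -0.08 ± 0.38 (Model against Ctrl, adjusted p = 0.882) and -0.13 ± 0.38 (Model_Swim against Ctrl_Swim, adjusted p = 0.875) were smaller than their errors. Model 3 is also the library with the lowest sum of posterior Hox genes, and the part of this in its low Lgr5 and Ascl2 was not tested.

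**Figure D2:**
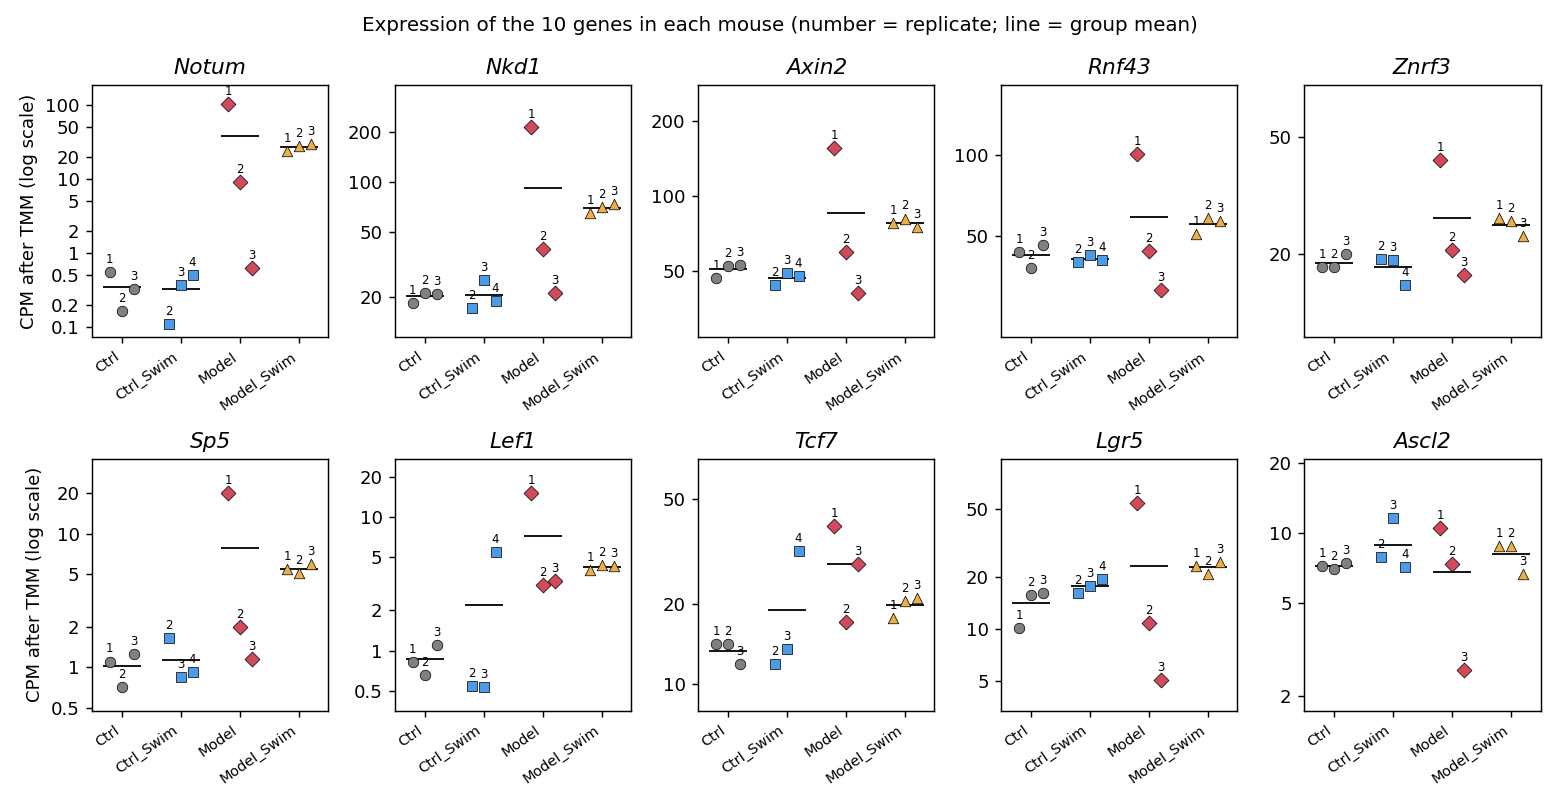
CPM of each gene in each mouse (log axis, with a scale of its own for each gene), with the 4 groups side by side, the replicate number above each point and a line at the arithmetic mean of the 3 mice. In 9 of the 10 genes Model 1 is the highest mouse, and the 3 Model_Swim mice sit close together inside the range of the Model mice.

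To show the sequence context of 3 of the transcription factors, the 250 bases before the RefSeq transcription start are printed for Sp5 and Lef1, which rose in Model, and Ascl2, which did not. Each window ends at the annotated outer end of its gene in GRCm38.p6 and is read 5′ to 3′ on the strand of the gene. They are chr2:70474673-70474922 (plus strand) for Sp5, chr3:131110047-131110296 (plus strand) for Lef1 and chr7:142969265-142969514 (minus strand) for Ascl2. Capitals mark a match to the TCF/LEF motif, searched as CTTTGAT or CTTTGAA on both strands in windows that reach 50 bases past the start.
Sp5: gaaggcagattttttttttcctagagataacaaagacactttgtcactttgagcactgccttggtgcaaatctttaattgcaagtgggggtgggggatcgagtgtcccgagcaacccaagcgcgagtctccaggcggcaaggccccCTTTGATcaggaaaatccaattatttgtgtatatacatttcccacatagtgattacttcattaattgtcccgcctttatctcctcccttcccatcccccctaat
Lef1: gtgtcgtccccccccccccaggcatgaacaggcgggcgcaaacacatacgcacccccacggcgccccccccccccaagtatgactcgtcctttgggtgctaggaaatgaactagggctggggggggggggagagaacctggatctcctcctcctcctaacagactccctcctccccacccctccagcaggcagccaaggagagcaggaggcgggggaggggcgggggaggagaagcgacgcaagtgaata
Ascl2: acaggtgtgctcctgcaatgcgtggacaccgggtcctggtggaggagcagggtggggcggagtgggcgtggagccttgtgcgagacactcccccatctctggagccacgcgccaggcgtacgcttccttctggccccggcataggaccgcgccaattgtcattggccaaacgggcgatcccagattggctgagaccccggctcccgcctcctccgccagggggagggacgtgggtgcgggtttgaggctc
The only match began 104 bases before the start of Sp5. Windows were at hand for 7 of the 10 genes, with none for Lgr5, Notum and Znrf3, and of their 12 windows the 1 of Sp5 held a match, against 2842 of all 32851 promoter windows (8.65%). A match is a description of the letters, and its absence from such a short window says nothing about binding elsewhere.

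The first comparison asked what AOM/DSS did without swimming. In Model against Ctrl, 5 of the 10 genes passed an adjusted p under 0.05 (edgeR quasi-likelihood test), and all 5 were higher in Model: Notum, Lef1, Sp5, Nkd1 and Tcf7. Of all 15484 genes tested, 32.7% passed in this comparison and 16.5% passed and were higher. All 5 also changed more than 2-fold, the cutoff of the study, which 7.43% of all genes passed together with the test. In 4 of the 5 the groups did not overlap, and 21.0% of all genes lay wholly higher in Model by that measure, while Sp5 overlapped through Model 3. The median difference of the 10 genes was 0.92 on the log2 scale, against 0.01 for all genes tested.

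Most of these calls were lost when Model 1, or any 1 of the Ctrl mice, was left out. Without Model 1, where 32.2% of all genes passed, Notum still did, with a difference of 3.82 (adjusted p = 0.0105). Nkd1 (0.59, adjusted p = 0.0709), Sp5 (0.64, adjusted p = 0.218), Lef1 (1.91, adjusted p = 0.102) and Tcf7 (0.78, adjusted p = 0.130) did not. Lgr5 then turned to -0.81 (adjusted p = 0.0583). Without Model 3, on the other side, 7 genes passed, where 35.8% of all genes did. Axin2 (1.10, adjusted p = 0.0120), Rnf43 (0.78, adjusted p = 0.0331) and Znrf3 (0.76, adjusted p = 0.0260) joined Notum, Nkd1, Sp5 and Lef1. Tcf7 fell short at an adjusted p of 0.0557. Leaving out any 1 of the Ctrl mice left only Notum past the threshold, where 20.1% to 22.3% of all genes passed. The differences were 6.45 to 7.27 for Notum, with adjusted p = 0.0666 to 0.115 for the other 4 genes. Tcf7 also fell just short without any 1 of the Model_Swim mice (adjusted p = 0.0526 to 0.0541). Without both Model 1 and Model 3, the libraries with pancreatic transcripts, the single Model 2 was set against Ctrl. Notum then differed by 4.68 and Nkd1 by 0.93, and a single mouse gives no spread of its own for Model.

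The Model mice differed widely from each other. In 8 of 10 genes the order was Model 1 over Model 2 over Model 3, as in 17.8% of all genes tested. In 9 of 10 genes Model 1 had the highest level of all 12 mice, as in 12.9% of all genes. The median SD within Model was 1.15 on the log2 CPM scale for the 10 genes and 0.194 for all genes, and 8 of 10 lay beyond 0.765, the 90th percentile of all genes. Within Model_Swim the median SD was 0.109 for the 10 genes and 0.118 for all genes, with none beyond the 90th percentile. In Ctrl the values were 0.146 and 0.108.

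**Figure D3:**
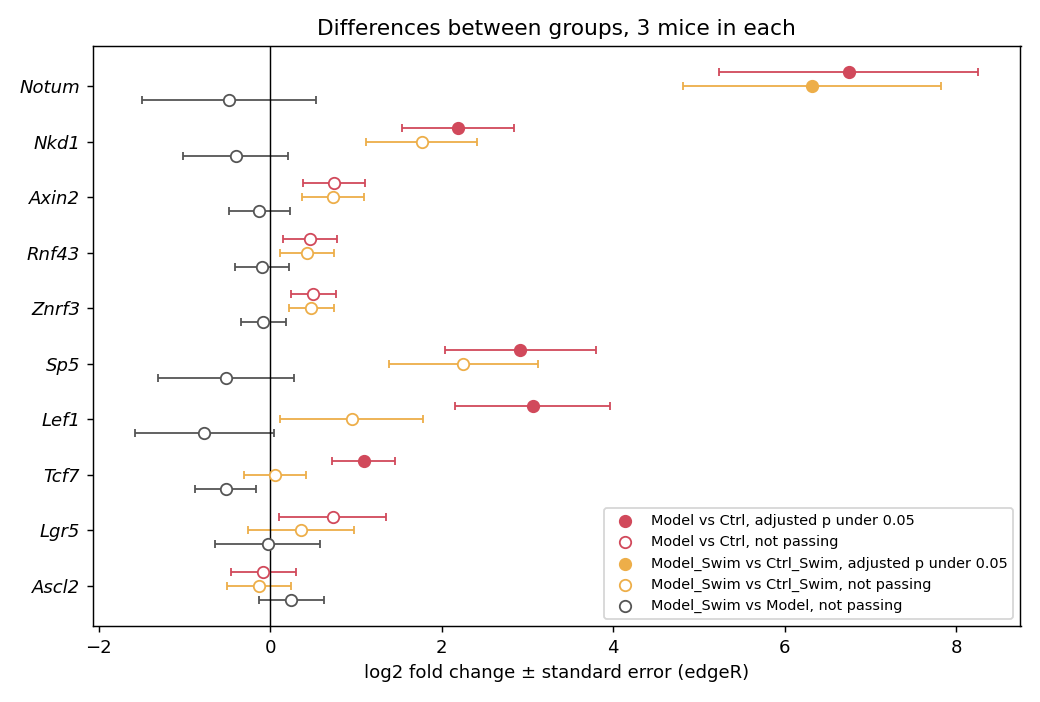
Fitted log2 fold changes with their standard errors for the 10 genes in Model vs Ctrl, Model_Swim vs Ctrl_Swim and Model_Swim vs Model (filled, adjusted p under 0.05). In Model vs Ctrl 5 genes pass, only Notum in Model_Swim vs Ctrl_Swim and none in Model_Swim vs Model, where all 10 estimates lie between -0.77 and 0.25.

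The second comparison put AOM/DSS on a background of swimming. In Model_Swim against Ctrl_Swim only Notum passed, where 5.18% of all genes did. Yet 7 of the 10 genes (Axin2, Nkd1, Lgr5, Notum, Rnf43, Znrf3 and Sp5) were higher in every Model_Swim mouse than in every Ctrl_Swim mouse, as were 15.9% of all genes, and in the same 7 each Model_Swim mouse exceeded all 6 mice without AOM/DSS, as in 10.8% of all genes. The 4-group fit sets 1 spread per gene for all groups, and that spread includes the wide Model group. In a fit of Ctrl_Swim and Model_Swim alone, where 8.59% of all genes passed, 6 of the 10 genes did. These were Notum (6.32 ± 0.30, adjusted p = 0.000125), Nkd1 (1.77 ± 0.14, adjusted p = 0.00109), Axin2 (0.74 ± 0.07, adjusted p = 0.00199), Sp5 (2.25 ± 0.29, adjusted p = 0.00608), Rnf43 (0.43 ± 0.07, adjusted p = 0.0146) and Znrf3 (0.48 ± 0.11, adjusted p = 0.0382). Lgr5 (0.36 ± 0.11, adjusted p = 0.0766) stayed short of the threshold there. In the 4-group fit the call of Notum was lost when any 1 mouse of Ctrl, Ctrl_Swim or Model_Swim was left out (adjusted p = 0.0591 to 0.127), with differences between 5.91 and 6.77.

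Lef1 and Tcf7 in this comparison turned on Ctrl_Swim 4, the untreated swimmer with 593 CPM of squamous genes and the high T cell sum. Without it, Lef1 differed by 2.96 (adjusted p = 0.0609) and Tcf7 by 0.64 (adjusted p = 0.231) between Model_Swim and Ctrl_Swim.

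The third comparison asked how swimming changed the treated colon. In Model_Swim against Model none of the 10 genes passed at an adjusted or unadjusted p under 0.05 by edgeR. Of all genes 0.071% passed the adjusted threshold there and 13.6% the unadjusted one. DESeq2 also gave 0 of the 10 by both, where 2.33% of all genes passed its adjusted threshold. The estimates ran from -0.77 ± 0.81 for Lef1 to 0.25 ± 0.38 for Ascl2, with -0.48 ± 1.01 for Notum and -0.13 ± 0.36 for Axin2. In all 10 genes the 3 Model_Swim mice lay inside the range of the 3 Model mice, as in 31.3% of all genes. The sign of the estimate hung on Model 1. Without it 9 of the 10 genes were higher in Model_Swim, up to 2.45 ± 0.76 for Notum, 1.77 ± 0.38 for Sp5, 1.52 ± 0.30 for Lgr5 and 1.20 ± 0.23 for Nkd1, with Tcf7 the exception at -0.20 ± 0.37. Of these, 7 had an unadjusted p under 0.05 and none passed after adjustment, the lowest adjusted p being 0.0800. In that fit 0.141% of all genes passed adjusted. For the direction and the unadjusted p the share of all genes is not given here.

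Without AOM/DSS, swimming was tested in Ctrl_Swim against Ctrl. None of the 10 genes passed by edgeR, adjusted or unadjusted, against 0.969% of all genes adjusted and 17.6% unadjusted. By DESeq2 none passed either, adjusted or unadjusted, where 4.92% of all genes passed adjusted. Lgr5 was the only gene whose groups did not overlap, by a margin under 1 count between the nearest mice (0.34 ± 0.62, adjusted p = 0.812), where 12.6% of all genes lay wholly higher. The largest differences were those of Lef1 (1.34 ± 0.90, adjusted p = 0.455) and Tcf7 (0.52 ± 0.36, adjusted p = 0.478), and they turned to -0.66 and -0.06 without Ctrl_Swim 4. The interaction, which tests whether swimming had another effect with AOM/DSS than without, passed in none of the 10 genes, adjusted or unadjusted (edgeR), while 0% of all genes passed adjusted and 19% unadjusted. By DESeq2 none of the 10 passed adjusted, where 5.52% of all genes did, and 1 of the 10, Tcf7, had an unadjusted p under 0.05.

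Reads of pancreatic genes also divided the other libraries at a trace level. Ctrl 1 to 3, Ctrl_Swim 3 and Model 2 had a median of 2.98 to 4.52 CPM per acinar gene, and Ctrl_Swim 2, Ctrl_Swim 4 and the 3 Model_Swim mice 0.163 to 0.495 CPM. No Model mouse thus lies on the lower side and no Model_Swim mouse on the upper, and the division and swimming cannot be told apart among treated mice. Within the lower side, the 3 Model_Swim mice differed from Ctrl_Swim 2 and 4 by 6.39 for Notum (adjusted p = 0.115), 1.94 for Nkd1 (adjusted p = 0.227) and 0.76 for Axin2 (adjusted p = 0.389). Within the upper side Model 2 and Ctrl remain, as given above. With the level of acinar genes as a covariate, none of the 10 genes passed in Model against Ctrl, where 20% of all genes did. Notum then differed by 4.50 (adjusted p = 0.0721), Nkd1 by 0.78 and Sp5 by 0.92. With the level of squamous genes as a covariate none of the 10 passed either, where 17.8% of all genes did. The differences were 3.79 for Notum (adjusted p = 0.212), 1.56 for Nkd1 (adjusted p = 0.230) and 1.77 for Sp5 (adjusted p = 0.313). Ctrl_Swim 4, an untreated mouse with squamous transcripts, had Notum at 0.511 CPM. The part of squamous tissue in the level of Notum was not tested beyond the fit with this covariate.

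Further genes of the pathway were read from 4 lists. Of 22 genes of the core machinery, from receptors to beta-catenin and its partners, 3 rose in Model against Ctrl, a share near the 16.5% of all genes that did. They were Bcl9 (0.43 ± 0.07, adjusted p = 0.00213) and Bcl9l (0.42 ± 0.09, adjusted p = 0.00527), both coactivators of beta-catenin, and Tnks (0.20 ± 0.07, adjusted p = 0.0392), which marks Axin for destruction. Tnks alone passed in Model_Swim against Ctrl_Swim (0.31 ± 0.07, adjusted p = 0.0273). The median of the 22 genes was 0.15 in Model against Ctrl, where it was 0.01 over all genes. Of the R-spondins and their receptors other than Lgr5, 5 of 6 were tested and 2 rose in Model, where 16.5% of all genes did. Rspo4 was at 0 in all Ctrl libraries and was not tested. Rspo3, the R-spondin made by the stroma below the crypt, was 5.35, 4.85 and 3.96 CPM in Ctrl and 8.47, 8.55 and 9.47 CPM in Model (0.90 ± 0.16, adjusted p = 0.00237), so that for this ligand Model 3 stood with its group. Rspo3 was 6.05, 5.82 and 6.57 CPM in Model_Swim and 5.92, 6.49 and 4.96 CPM in Ctrl_Swim. The estimates for Rspo2 (-0.98 ± 0.42, adjusted p = 0.0932) and Rspo1 (0.88 ± 0.41, adjusted p = 0.116) in Model against Ctrl did not pass. Lgr6, an R-spondin receptor known from skin stem cells, was 0.220 CPM or less in Ctrl and 11.8, 3.49 and 0.230 CPM in Model (5.72 ± 1.36, adjusted p = 0.00980). Its low mouse in Model was again Model 3, which also lacked the squamous transcripts of Model 1 and 2. Whether squamous tissue had a part in the level of Lgr6 was not tested.

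Of 14 other known Wnt targets, 5 rose in Model against Ctrl, where 16.5% of all genes did, and none fell. They were Wif1 (4.22 ± 1.03, adjusted p = 0.0110), a secreted trap for Wnt ligands, Apcdd1 (3.58 ± 0.87, adjusted p = 0.0105), a membrane inhibitor, Mmp7 (3.43 ± 0.98, adjusted p = 0.0220), a protease of intestinal adenomas, Dkk2 (2.88 ± 0.68, adjusted p = 0.00939), a secreted modulator of Wnt receptors, and Prox1 (2.86 ± 0.80, adjusted p = 0.0195), a homeobox factor. Wif1 shows the pattern, with 2.93, 3.82 and 2.36 CPM in Ctrl, 149.5, 17.2 and 3.44 CPM in Model, and 41.0, 45.8 and 49.7 CPM in Model_Swim. Model 3 stood within the Ctrl range. Of the broadly expressed targets, Myc differed by 0.26 ± 0.14 (adjusted p = 0.185) and Ccnd1 by -0.08 ± 0.14 (adjusted p = 0.674) in Model against Ctrl, and by 0.51 ± 0.14 (adjusted p = 0.0635) and 0.01 ± 0.14 (adjusted p = 0.982) in Model_Swim against Ctrl_Swim. There 3 of the 14 passed, all higher, namely Wif1 (4.20 ± 1.05, adjusted p = 0.0444), Mmp7 (3.97 ± 1.01, adjusted p = 0.0470) and Sox9 (0.70 ± 0.16, adjusted p = 0.0350), a factor of crypt progenitors.

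**Figure D4:**
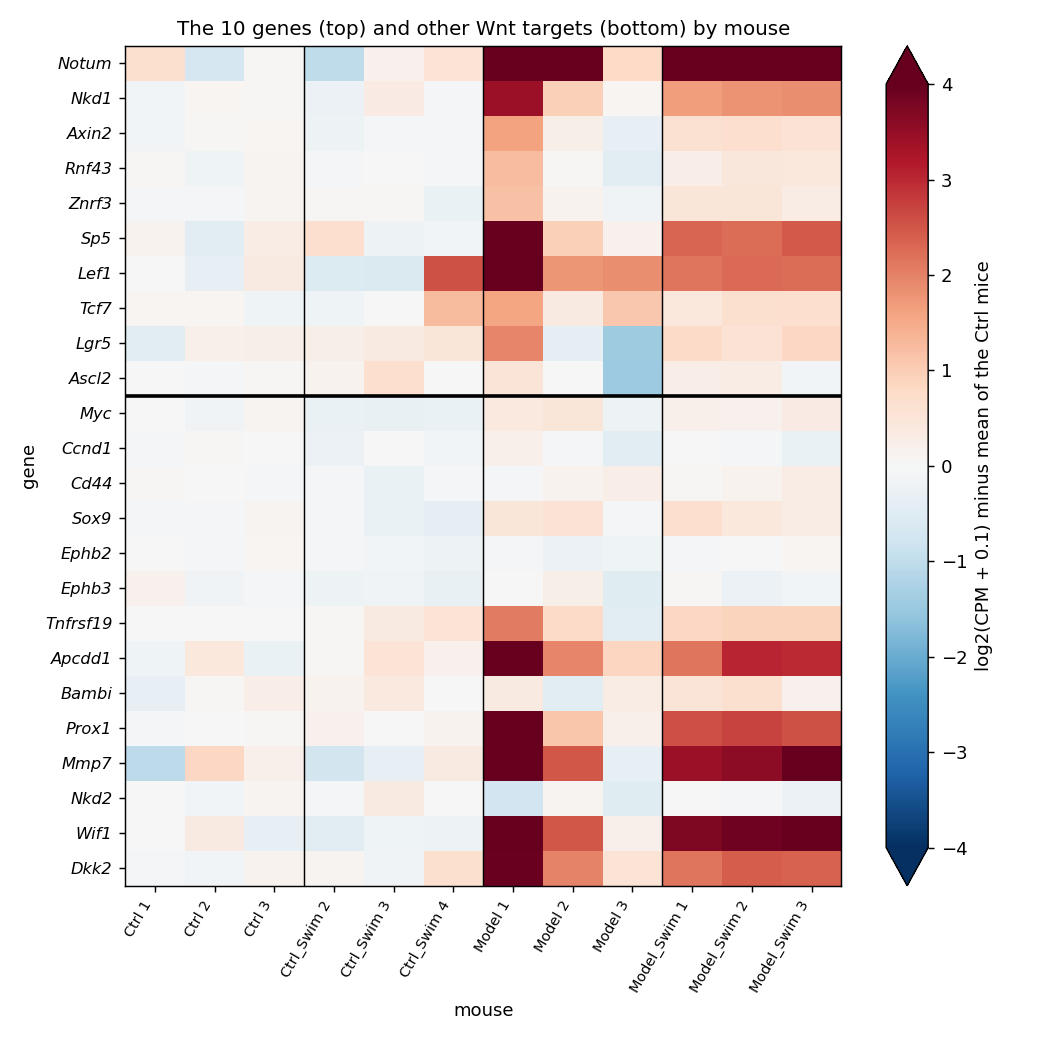
Level of the 10 genes (above the line) and of the 14 other Wnt targets (below it) in each of the 12 mice, as log2(CPM + 0.1) minus the mean of the Ctrl mice, with red higher, blue lower, and colours capped at 4 in either direction. Notum, Sp5, Apcdd1, Prox1, Mmp7, Wif1 and Dkk2 are red in Model 1 and in the 3 Model_Swim mice and pale in Model 3, while Lef1 is red in all AOM/DSS mice and in Ctrl_Swim 4.

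Of 12 other genes of the crypt base and its progenitors, none rose in Model against Ctrl and 3 fell, where 16.2% of all genes fell. These were Olfm4 (-3.39 ± 1.02, adjusted p = 0.0266), a secreted stem cell marker that is sparse in mouse colon, Slc12a2 (-0.41 ± 0.08, adjusted p = 0.00452), an ion transporter, and Cdca7 (-0.44 ± 0.08, adjusted p = 0.00291), a chromatin protein of dividing cells. Their median was -0.16. Lrig1, a brake on growth factor receptors, fell short (-0.21 ± 0.08, adjusted p = 0.0511). None of the 12 passed in the other comparisons. Of 15 proliferation genes 4 fell and none rose in Model against Ctrl, and 8 of 10 epithelial genes fell, against the same 16.2% of all genes, with the epithelial sum at 11972 to 12524 CPM in Model and 15836 to 17705 CPM in Ctrl. The sum of 10 fibroblast genes was 3062 to 3225 CPM in Model and 1867 to 1984 CPM in Ctrl. Of the 10 fibroblast genes 8 rose, where 16.5% of all genes did, and the part of this in the results was not tested. With the epithelial level as a covariate, which separated these groups, none of the 10 genes and none of all genes passed in Model against Ctrl.

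The genes whose log2 CPM followed each of the 10 most closely were searched among 13956 genes over the 12 mice, with the 10 genes themselves left out of the search and compared apart. These correlations share the groups and lean on Model 1, and are given as a description. Notum ran with Prr18 (Pearson r = 0.988) and with Wif1 (0.984), Nkd1 with Prss56 (0.989) and Spock2 (0.987), and Sp5 with Prox1 (0.981) and Clstn2 (0.980). Outside the 10 genes, Axin2 and Rnf43 had the same nearest pair, Krt23 and Mt3 (0.978 and 0.971 for Axin2, 0.956 and 0.953 for Rnf43), and Znrf3 ran with Clstn2 (0.965) and Sox4 (0.953). For Lgr5 they were Bex1 (0.965) and Tubb4a (0.937). Without Model 1 the r of these pairs lay between 0.869 and 0.987. The remaining genes had neighbours of another kind. Ascl2 ran with Scnn1g, a subunit of the distal colon's sodium channel (0.937), and with the posterior Hox gene Hoxd13 (0.907). Lef1 ran with Clec5a (0.944) and Pik3ap1 (0.944), and Tcf7 with Pik3ap1 (0.945) and Limd2 (0.934), of which Clec5a and Pik3ap1 are genes of blood cells. Among the 10 genes themselves, Lef1 was nearest to Tcf7 (0.893) and Ascl2 to Lgr5 (0.755), whereas Axin2 and Nkd1 were nearest to each other (0.973). Rnf43 (0.963) and Znrf3 (0.967) were nearer to Axin2 than to any of the genes searched.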

How the data were processed

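RNA sequencing data of 12 mouse colorectal libraries were analysed, 3 in each group. Per the study's methods the authors used Trimmomatic for trimming, HISAT2 for alignment to GRCm38.p6 and HTSeq-count for read counts per gene. Versions, annotation release and use of strand are not given in the sources used here. They deposited raw counts for 18514 genes by symbol, and FPKM values that the authors made with Cufflinks. The methods and the labels name different RNA extraction kits.

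Counts were scaled by TMM and filtered by filterByExpr (minimum count 10), and a quasi-likelihood model of the 4 groups was fitted in edgeR 4.0.16 (R 4.3.3). P-values were adjusted by Benjamini-Hochberg over 15484 genes within each of 5 contrasts. They measure the spread between these libraries, since nothing more is known of how the mice were kept apart. An SE is the log2 fold change divided by the root of F. Log2 CPM used a prior count of 2. A count of 3 is 0.153 to 0.172 CPM, and counts carry counting error besides the spread between mice. FPKM was used to compare levels between genes, and in limma 3.58.1 as an alternative. DESeq2 1.42.0 was another. Further alternatives were DESeq2's size factors, no filter, only the groups compared, a replicate block, 5 added terms (acinar, squamous, T cell, epithelium and trace pancreatic reads), and leaving out mice. Positions and promoter windows come from RefSeq, GRCm38.p6.

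The members and lists were chosen with earlier results of these data known. The text names the 10 genes, per pathway list up to 4 genes with the lowest adjusted p in Model vs Ctrl and up to 2 that passed in each other comparison, and per gene the 2 genes of highest r outside the 10 among those with a mean of at least 1 CPM. Per marker list it names the 2 most abundant genes and those at 0 in a group, for the lists a result turns on. Outside this rule, Mmp7, Myc, Ccnd1 and Rspo4 complete the lists' counts and were named with their values known. Code was tested on simulated data.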

Additional observations from a re-analysis of the deposited data

How the results depend on the processing

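In edgeR no count of the 10 genes passing changed with DESeq2's size factors or without the filter on low counts. For Model against Ctrl, 5 of the 10 genes and 32.7% of all genes passed. DESeq2 also gave 5 (34.2% of all genes), as did edgeR with the term for trace pancreatic reads (31.1%). In a fit of only those groups 3 passed (22.5% of all genes), and 3 with limma on log2(FPKM + 0.1) (33.3%). With limma on log2(FPKM + 1) 1 passed (32.6%), and 0 when that was left unfiltered (24.1%). With the acinar, the squamous, the T cell or the epithelium level as a covariate 0 passed, against 20%, 17.8%, 1.18% and 0% of all genes. Leaving out 1 mouse at a time gave 1 to 7, with 1 without any of the Ctrl mice or Model 1. For Model_Swim against Ctrl_Swim, where 1 passed, the count was 2 with DESeq2 and 6 in a fit of only those groups. It was 0 with either limma fit on log2(FPKM + 1), the squamous or epithelium covariate or the term for trace pancreatic reads. Leaving out 1 mouse at a time gave 0 to 5, with 5 without Model 1 and 2 without Model 3. Of all genes, 5.18% passed in the main fit of this comparison, 10.6% with DESeq2 and 8.59% in the fit of only those groups. Without Model 1 the share was 8.92% and without Model 3 9.3%. It was 1.38% to 7.7% in the limma, covariate and trace fits that gave 0. Without Model 1 and Model 3 the single Model 2 stands for its group. Nkd1 (0.85) and Lgr5 (1.09) were then among the genes higher in Model_Swim than in Model, and Axin2 was at 0.52 in the interaction. With the epithelium covariate Lef1 (-0.83) and Tcf7 (-0.54) changed sign in Model against Ctrl without passing. The cause of these changes was not tested, other than that fits of fewer mice estimate the spread from fewer mice.

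The labels' replicate numbers are shared across groups, but nothing in the labels ties same-numbered mice together. The deviations of the 15 same-numbered pairs correlated with r from -0.26 to 0.56 (median 0.0046, 4 over 0.1) and those of the 39 other pairs from -0.56 to 0.45. With the replicate block, 3 genes passed in Model against Ctrl and 0 in Model_Swim against Ctrl_Swim, where 27.9% and 0.258% of all genes did. In the other comparisons the count stayed at 0.

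At 17256953 counts or more a library, Notum, Sp5 and Lef1 had 2 to 30 counts in untreated libraries other than that of Lef1 in Ctrl_Swim 4.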
